A study of Arabidopsis thaliana with 9 samples.

Results

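In Arabidopsis thaliana seedlings 41 probe sets stood apart in the cct-1 mutant while wild type and the gct-2 mutant lay close together, and 23 of them were higher and 18 lower in cct-1. A probe set is the group of array probes that reads 1 transcript or a few alike ones. By the smaller of its differences from the other genotypes, the first named gene was HYH, a bZIP transcription factor of light signalling related to HY5, at 8.96 ± 0.15 in cct-1 against 7.42 ± 0.25 in wild type and 7.27 ± 0.40 in gct-2 (log2 values, mean ± SD, n = 3 each). Members were chosen by measured values. The cct-1 mean differed from both other means by 0.7 log2 or more in the same direction, all 3 cct-1 arrays lay on one side of the other 6, the wild-type and gct-2 means lay less than 0.3 apart, and the highest of the 9 arrays reached 7.0 or more. The 41 are 0.244% of the 16826 probe sets other than controls, 0.137% higher and 0.107% lower. Another 2 probe sets met every measured condition and were left out as mitochondrial or as loci of the chromosome 2 copy of the mitochondrial genome. All 3 genotype contrasts entered the choice, so the levels below are a description without a test.

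CCT and GCT encode MED12 and MED13, which with a cyclin-dependent kinase and a cyclin form the CDK8 module of Mediator. Mediator links DNA-bound transcription factors to RNA polymerase, and the module binds it reversibly and can repress or promote transcription. Loss of either subunit in Arabidopsis delays steps of embryo and shoot development, and many gene changes are common to both mutants, which makes genes that differ in 1 of them of interest.

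The study compared 3 genotypes in the Col-0 background on Affymetrix arrays, with 3 arrays each: wild-type Col-0 harvested at 7 days, cct-1 at 9 days and gct-2 at 9 days. Harvest was set by stage, with leaf primordia 1 mm long, and each array was a separate biological replicate, a pool of 75 to 100 seedlings without roots, grown on soil at 23 °C with 16 h of light. The labels do not describe the lesions, and whole-seedling RNA cannot tell a change in cell make-up from a change of RNA per cell. Wild type differs from cct-1 in age as well as genotype, which cannot be told apart, while gct-2 had the same age as cct-1.

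Array medians lay between 7.7 and 7.76, and the number of arrays limits the precision. No probe set was named for CCT or GCT, so these genes could not check the labels. Of the shoot markers only LHCB4.1, LHCB4.2 and RCA were named, 3 of 11, and all were bright, with summed levels of 39.4 to 39.5 in wild type, 39.1 to 39.3 in cct-1 and 39.8 in gct-2, ranges that did not overlap. The markers did not move together. LHCB4.2 stood at 12.80 ± 0.09 in wild type, 12.57 ± 0.05 in cct-1 and 13.09 in gct-2 (SD 0.0048, n = 3 each), whereas LHCB4.1 differed in cct-1 by -0.09 and -0.08 and RCA by 0.08 and 0.05 from wild type and gct-2. Markers of root, seed and flower were not analysed here. The 3' minus 5' difference of the ubiquitin control probe sets, a measure of RNA and labelling quality, was 1.79 to 1.86 in wild type, 1.47 to 1.69 in cct-1 and 1.54 to 1.63 in gct-2, so the mutants overlapped each other and lay under wild type. The same measure overlapped among all genotypes for actin, at 2.77 to 3.11 over the 9 arrays, and for GAPDH, at 1.01 to 1.09 in wild type, 1.06 to 1.20 in cct-1 and 1.06 to 1.25 in gct-2. The part of these differences in the levels below was not tested.

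Under the same conditions, 55 probe sets (30 higher and 25 lower) set gct-2 apart from cct-1 and wild type. A further 216, 125 higher and 91 lower in wild type, set wild type apart from both mutants. Members higher in cct-1 had a median difference of 0.94 from wild type and 0.90 from gct-2, and those lower in cct-1 had medians of -0.93 and -0.88. Only 10 of the 41 differed by at least 1 log2, a 2-fold change, from both genotypes, 8 of them higher and 2 lower.

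**Figure D1:**
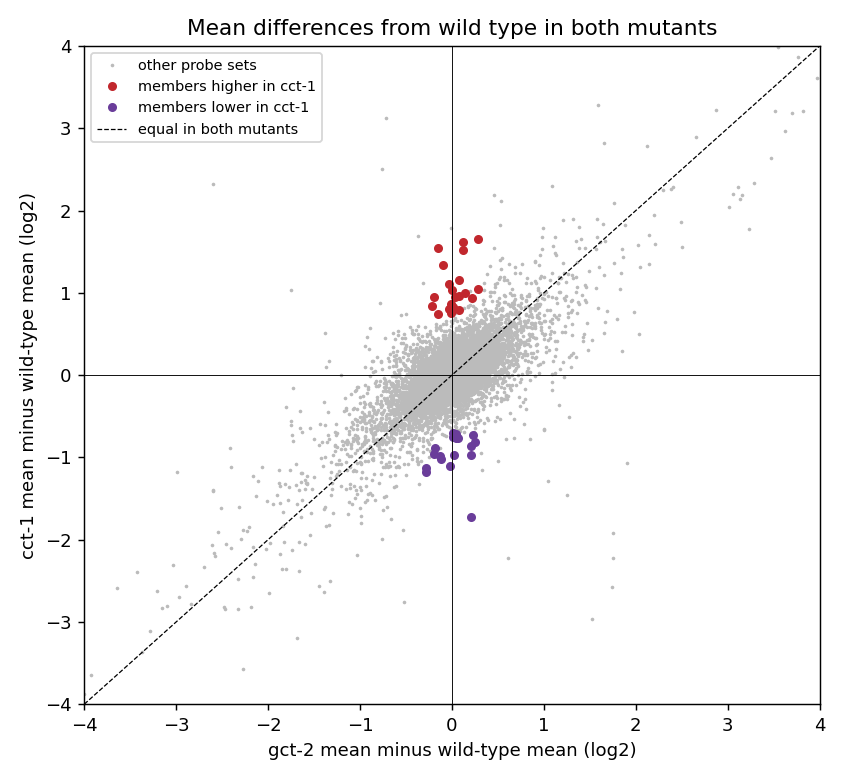
Mean log2 difference from wild type in gct-2 (x axis) and cct-1 (y axis) for probe sets whose highest array reached 7.0, with 20 points outside the axes not drawn. Controls and the excluded mitochondrial and chromosome 2 loci are not shown. Members (coloured) lie along the vertical axis within 0.3 of 0 for gct-2 because the choice required it, 23 above and 18 below.

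Only 17 members had 1 gene name in the annotation, 11 higher and 6 lower. One more matched several genes and 23 had none in the table used here, so they could not be checked for a mitochondrial origin either. Named members made up 41.5% of the 41, against 55.5% of all probe sets other than controls. They lay on all 5 nuclear chromosomes, with 8, 2, 2, 2 and 3 on chromosomes 1 to 5, where the array table named 2448, 1342, 1865, 1355 and 2212 probe sets.

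HYH, whose product promotes seedling development in light and is a target of the COP1 ubiquitin ligase, read 9.12, 8.83 and 8.93 on the cct-1 arrays. On the wild-type arrays it read 7.71, 7.30 and 7.25, and on the gct-2 arrays 7.71, 7.18 and 6.93. The lowest cct-1 array lay 1.12 above the highest of the other 6, the widest such gap among the members. Its mean was 2.91-fold that of wild type and 3.22-fold that of gct-2. AT1G64500, which encodes the actin-bundling protein THRUMIN1 of light-driven chloroplast movement, read 6.81, 6.60 and 7.28 in cct-1, between 5.12 and 5.57 in wild type and between 5.32 and 5.57 in gct-2. The groups did not overlap, but all wild-type and gct-2 arrays and 2 of the 3 cct-1 arrays lay under the filter for dim signals, each array's 40th percentile. Thus its measured 3.06-fold and 2.81-fold differences came to 1.04-fold when only the wild-type and gct-2 levels were raised to the filter. The cct-1 mean itself holds dim readings, so this is not a firm lower bound. Of 17 other light-signalling genes listed, HY5 among them, none had a named probe set and they were not analysed here.

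Among members of auxin metabolism, UGT74D1, a UDP-glucosyltransferase that conjugates auxins, read 7.72, 8.15 and 8.29 in cct-1. It read 7.40, 6.94 and 7.43 in wild type and 7.35, 6.97 and 7.36 in gct-2, so the lowest cct-1 array lay 0.29 above the others. Its cct-1 mean was 1.74-fold that of wild type and 1.78-fold that of gct-2. AT1G14120 encodes DAO2, a close relative of the auxin-oxidizing dioxygenase DAO1. It read 7.11, 6.78 and 6.62 in cct-1 against 4.82 to 5.55 in wild type and 5.04 to 6.18 in gct-2, where replicate 1 was the highest. All arrays of wild type and gct-2 and 2 of the 3 cct-1 arrays lay under the filter, so no lower bound of its fold above 1 was available.

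Sugar metabolism and transport were represented by ATSPS4F and AT5G17010, both above the filter on all 9 arrays. ATSPS4F encodes an isoform of sucrose-phosphate synthase, the enzyme that makes the precursor of sucrose. It read 9.97, 9.51 and 9.56 in cct-1, 9.30, 8.71 and 8.79 in wild type and 8.87, 8.85 and 8.62 in gct-2, with wild-type replicate 1 only 0.22 under the nearest cct-1 array. AT5G17010, a transporter of the vacuolar glucose transporter family, read 7.94, 8.57 and 8.38 in cct-1, with a highest value of 7.49 in wild type and 7.73 in gct-2. Their cct-1 means were 1.68-fold and 1.92-fold those of wild type, and 1.86-fold and 1.65-fold those of gct-2.

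AT1G33110, a MATE-family transporter of the kind that exports toxins and metabolites, was among the members with the tightest cct-1 values. It read 8.61, 8.72 and 8.61 in cct-1, 7.82, 7.79 and 7.25 in wild type and 7.57, 7.49 and 7.78 in gct-2. All cct-1 arrays were at least 0.80 above the rest, a 2.04-fold and a 2.05-fold difference of means. AT3G13940, which encodes a protein related to the A49 subunit of RNA polymerase I, the polymerase of ribosomal RNA, read 8.37, 8.55 and 8.42 in cct-1 against 7.21 to 7.81 in wild type and 7.06 to 7.64 in gct-2. Its cct-1 mean was 1.92-fold and 2.21-fold the others.

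AT5G47330, of the alpha/beta-hydrolase superfamily, read 5.71, 7.15 and 5.74 in cct-1, up to 5.06 in wild type and up to 5.49 in gct-2. It was above the filter on cct-1 replicate 2 only, and without that array its differences were 0.87 from wild type and 0.96 from gct-2, against 1.34 and 1.44 with it. Both thus rest on dim readings, and no lower bound of its fold above 1 was available. AT1G32520 read 7.42, 7.20 and 7.22 in cct-1 against 6.14 to 6.59 in wild type and 6.30 to 6.55 in gct-2, at least 1.35-fold higher in cct-1 than either. AT1G03100, of the pentatricopeptide repeat family that processes organelle RNA, stood at 7.15 ± 0.19 in cct-1 and 6.39 in both wild type (SD 0.18) and gct-2 (SD 0.08), with n = 3 each. The difference was at least 1.24-fold. Both genes lay under the filter on every wild-type and gct-2 array and above it on every cct-1 array.

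The 6 named members lower in cct-1 lay above the filter on all arrays. AT5G05090, a transcription factor of the GARP family, read 7.90, 7.47 and 7.78 in cct-1. It read 9.05, 8.88 and 8.27 in wild type and 8.23, 8.72 and 8.91 in gct-2, a mean 2.02-fold lower in cct-1 than in wild type and 1.87-fold lower than in gct-2. AT1G30250 read 8.15, 7.53 and 8.10 in cct-1 against 8.91 to 9.27 in wild type and 8.53 to 8.90 in gct-2. It was 2.18-fold and 1.79-fold lower in cct-1.

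AT1G17430, of the alpha/beta-hydrolase superfamily like AT5G47330, read 7.66, 7.61 and 7.85 in cct-1, no lower than 8.38 in wild type and no lower than 8.31 in gct-2. It was 1.70-fold and 1.75-fold lower in cct-1 than in wild type and gct-2. AT2G38465 read 8.52, 8.42 and 8.20 in cct-1 and was 1.70-fold lower than in wild type and 1.77-fold lower than in gct-2. The 2 others had 1 cct-1 array near the rest. AT1G70160 read 7.96, 8.26 and 8.89 in cct-1, with replicate 3 only 0.05 below the lowest wild-type array. AT4G27840 read 7.66, 7.60 and 8.23, with replicate 3 0.17 below the others.

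**Figure D2:**
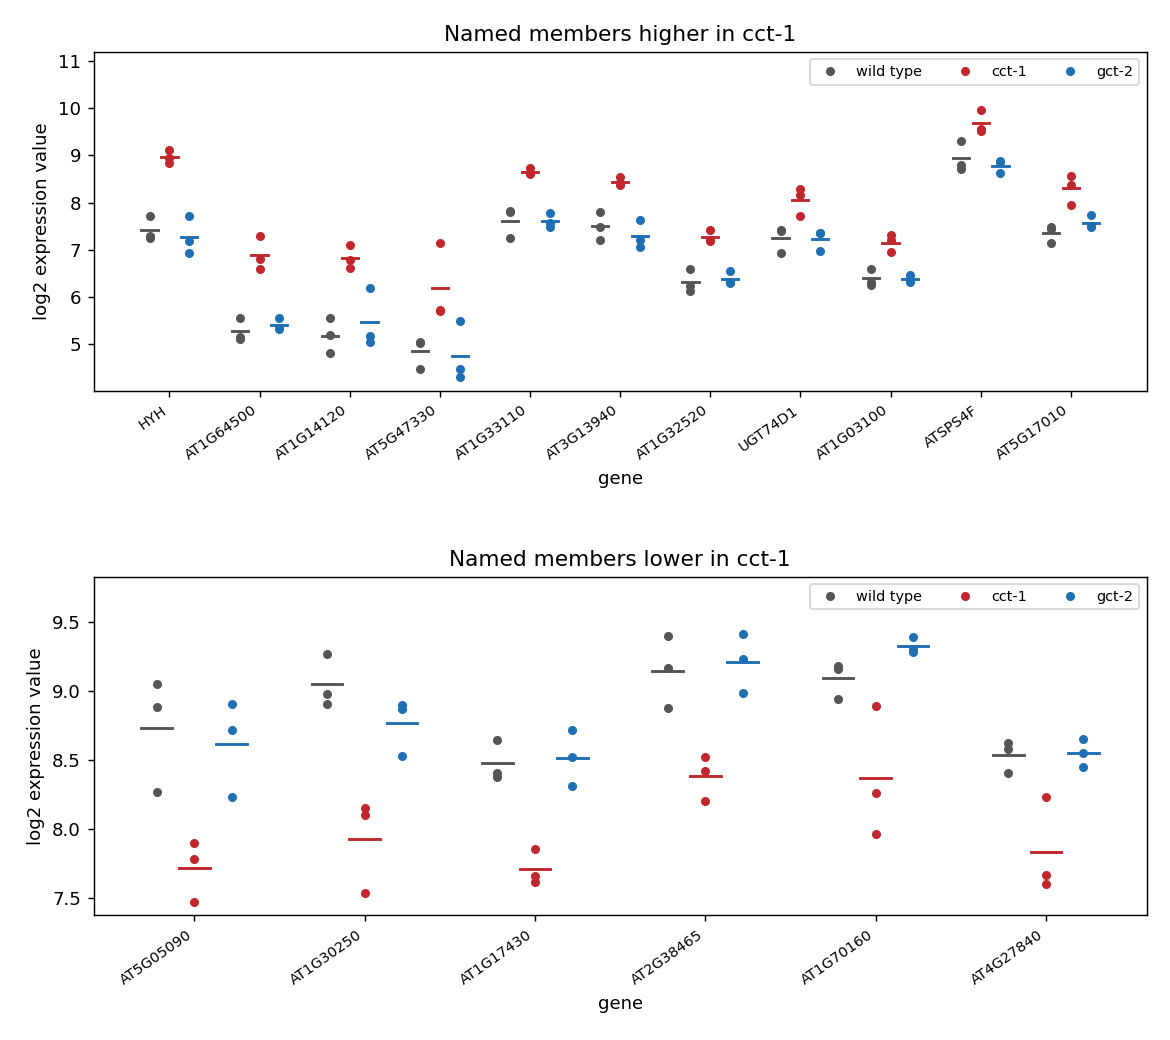
Log2 values of the 17 named members on each array (points) with the mean of each genotype (lines), higher members above and lower members below, each ordered by the smaller of their differences from wild type and gct-2. HYH has the widest gap between cct-1 and the other arrays (1.12) and AT1G70160 the narrowest (0.05).

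Of the probe sets without a gene name, those with the largest differences each way, by the smaller of the differences from wild type and gct-2, were 255694_at and 253943_at among the higher and 259751_at and 248793_at among the lower. They were picked after their values were seen. Probe set 255694_at read 7.09 ± 0.21 in cct-1 against 5.57 ± 0.43 in wild type and 5.69 ± 0.21 in gct-2 (SD, n = 3 each). It lay under the filter on all wild-type and gct-2 arrays and 1 cct-1 array and was not tested. Its difference from either came to 1.19-fold with only their levels raised to the filter, no firm bound since 1 cct-1 array was dim. Probe set 253943_at, above the filter throughout, read 8.67 ± 0.16 against 7.57 ± 0.11 and 7.53 ± 0.06. Probe set 259751_at read 5.95 ± 0.55 in cct-1 against 7.67 ± 0.76 in wild type and 7.87 ± 0.42 in gct-2. All its cct-1 arrays lay under the filter, which gives at least a 1.75-fold and a 2.01-fold difference and no order relative to 248793_at. Probe set 248793_at read 7.94 ± 0.17, 9.04 ± 0.50 and 9.02 ± 0.27 in cct-1, wild type and gct-2, 2.15-fold and 2.12-fold lower in cct-1.

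The choice required all 3 cct-1 arrays to lie beyond the other 6, and the array farthest out varied between members. The higher members peaked on cct-1 replicate 1 in 10 cases, on replicate 2 in 5 and on replicate 3 in 8, and the lower members were lowest on these arrays in 4, 8 and 6 cases. The gap between the cct-1 arrays and the nearest of the other 6 ran from 0.20 to 1.12 among the higher members (median 0.46) and from 0.05 to 0.68 among the lower (median 0.36). Over all probe sets other than controls 5.28% had the 3 cct-1 arrays above the other 6 and 3.82% had them below. Deviations from the genotype means correlated little between members, with a median Pearson's r of 0.02 over 253 pairs of higher members and 0.16 over 153 pairs of lower ones, all from the same 9 arrays. Lower members read above their genotype mean on wild-type replicate 1 in 15 of 18 cases and on wild-type replicate 2 in 3 of 18. Their median deviations there were 0.17 and -0.08, beside 0.02 and -0.02 over all probe sets above the filter on at least 3 arrays.

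**Figure D3:**
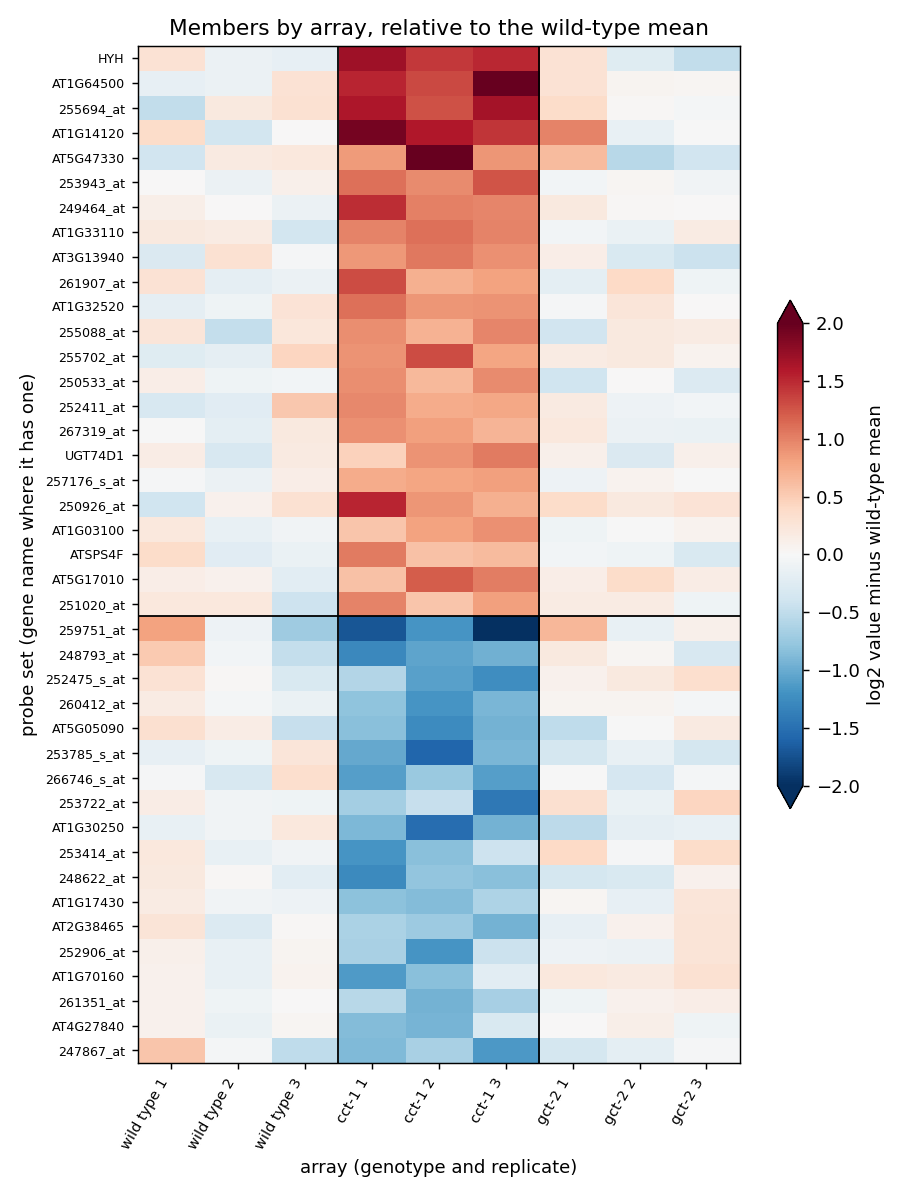
Log2 value of each of the 41 members on each of the 9 arrays minus the wild-type mean of that probe set, with colours ending at 2 either way. The cct-1 columns are red for the 23 higher and blue for the 18 lower members, and AT5G47330 is highest on cct-1 replicate 2.

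The threshold of 0.7 divided a continuous range. Just inside it on the higher side were AT5G17010, ATSPS4F and AT1G03100, with smaller differences of 0.72, 0.75 and 0.76, and just outside it AT3G22540, AT1G75170 and AT5G64816 with 0.66, 0.66 and 0.63. On the lower side AT4G27840, AT1G70160 and AT2G38465 lay inside with 0.70, 0.72 and 0.77, and AT1G21920, AT3G11930 and AT4G05150 outside with 0.68, 0.68 and 0.67.

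To read the pattern on arrays that did not choose it, the 3 arrays of 1 replicate number were left out, the same conditions were applied to the other 6, and the left-out arrays were then compared. Each number was left out in turn, which gave 78 choices of 55 probe sets as higher and 67 choices of 51 as lower. In 66 of the 78 (84.6%) the left-out cct-1 array lay above both left-out others, and in 33 (42.3%) by 0.7 or more. Of the choices made without replicate 1, 2 and 3, 13, 14 and 14 were also members. For these the full choice had fixed the side on the left-out arrays. All probe sets of a round were read on the same 3 arrays, so they are not replicates and nothing was tested. For comparison, 10674 probe sets reached 7.0 and were neither controls nor the excluded mitochondrial and chromosome 2 loci. Among them 28.9%, 34.0% and 35.4% lay above both on the arrays of replicate 1, 2 and 3. The shares by 0.7 or more were 0.843%, 1.2% and 0.899%.

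For probe sets chosen as lower, 60 of 67 (89.6%) lay below both on the left-out arrays and 17 (25.4%) by 0.7 or more. All probe sets gave 32.2%, 27.7% and 28.3%, and 1.32%, 0.862% and 0.881% by 0.7 or more. Of the lower choices 8, 10 and 12 were also members, with the same limit. The median of the smaller difference on the left-out arrays was 0.65 for higher and 0.45 for lower choices. Among the members the medians were 0.87 and 0.82. Those are unlike measures, since they compare means of 3 arrays and not single arrays, over another set of probe sets. The genes named next are members, for which every cct-1 array already had to lie beyond all wild-type and gct-2 arrays. That they exceeded the left-out arrays was therefore fixed by the full choice, and only the sizes are described. HYH was chosen each time and exceeded both left-out arrays by 1.41, 1.53 and 1.68. AT1G33110, chosen each time, exceeded them by 0.80, 0.93 and 0.83, and AT1G32520 and ATSPS4F were chosen each time as well. AT1G32520 exceeded them by 1.12, 0.64 and 0.63, and ATSPS4F by 0.67, 0.66 and 0.77, each under 0.7 in 2 of the 3 rounds. AT1G14120 and AT5G17010 were chosen in none of the 3 rounds.

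**Figure D4:**
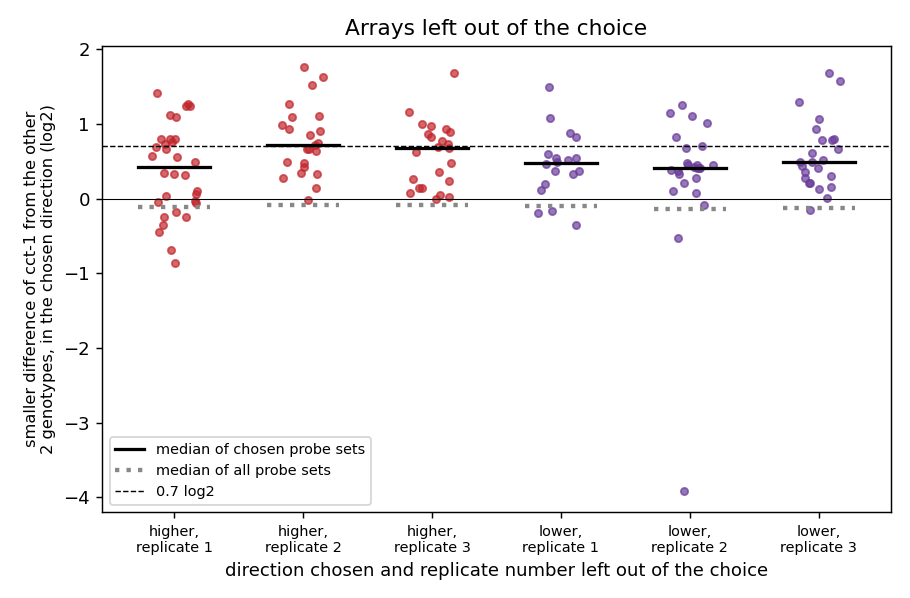
Smaller of the differences of the left-out cct-1 array from the left-out wild-type and gct-2 arrays, signed in the chosen direction, for each probe set chosen on the other 6 arrays. Medians of the chosen probe sets (solid lines) lie between 0.41 and 0.72 and those of all probe sets (dotted) between -0.13 and -0.09, and 1 unnamed probe set chosen as lower lay at -3.92.

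In limma's fit over all 10395 probe sets above the filter on at least 3 arrays, 34 of the 41 members were tested. All 34 passed an adjusted p of 0.05 for cct-1 minus wild type, where 12.9% of all tested probe sets did, and 30 passed it for cct-1 minus gct-2, where 6.39% did. The choice used both contrasts, so nothing is read from these counts. The 7 members not tested exceeded the filter on fewer than 3 arrays. Members under it on all wild-type and gct-2 arrays numbered 8, all of them higher in cct-1, and those of them that were tested passed the filter through the cct-1 arrays, where they had to be high.

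Relatives of the named members, looked up after the members were known, could be read for few. DAO1 (AT1G14130), also the chromosomal neighbour of AT1G14120, had 6.29 in wild type, 6.44 in cct-1 and 6.29 in gct-2 and was too dim to be tested. The UGT74 genes UGT74B1 and AT2G31790, glucosyltransferases of glucosinolate synthesis, differed in cct-1 by -0.20 and 0.46 from wild type (limma adjusted p = 0.676 and 0.0689) and by -0.0027 and 0.38 from gct-2 (adjusted p = 0.996 and 0.161). AT2G31790 was called in both comparisons with array weights and when gct-2 replicate 1 was left out, and against wild type also with an intensity trend and with only wild type and cct-1 fitted (adjusted p down to 0.0175 from wild type and 0.0248 from gct-2). For genes next to the named members on the chromosome, 12 of 34 had a named probe set and 8 were tested. None was a member. AT2G31740, beside UGT74D1, was higher in cct-1 than in wild type by 0.57 (limma adjusted p = 0.003) and differed by 0.24 from gct-2 (adjusted p = 0.131). It was also higher in gct-2 than in wild type, by 0.33 (limma adjusted p = 0.0271). The other tested neighbours were called in neither comparison of cct-1.

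The gene lists covered 56 tested genes that were not members, from 12 of 20 lists. Against wild type 8 of the 56 rose and 11 fell in cct-1, beside 6.3% higher and 6.63% lower among all tested probe sets. Most of these were also called the same way in gct-2 against wild type. The exceptions were XTH32, GSTU16, UGT78D2, COR47, UGT71C5, UGT76E11 and TAPX. Against gct-2, 2 of the 56 rose and 1 fell in cct-1, beside 3.19% each way. The median difference of the 56 was -0.05 from wild type and -0.01 from gct-2, beside 0.01 and 0.02 over all. The glycosyltransferase list was the one with a member, UGT74D1. Of its 15 other tested genes 2 rose and 3 fell against wild type. UGT78D2, which glucosylates flavonoids, rose by 1.33 (SE 0.18, limma adjusted p = 0.0022) against wild type and by 0.91 (SE 0.18, adjusted p = 0.0254) against gct-2. It was the gene among the 56 that was called the same way in both comparisons. UGT85A3 rose by 1.06 against wild type, whereas UGT85A4 and UGT71C5 differed by -1.45 and -0.63, each called there and not against gct-2. In gct-2, UGT85A3 and UGT85A4 differed from wild type the same way, by 1.36 and -1.31 (limma adjusted p = 0.0077 and 0.0124). UGT71C5 differed there by -0.26 (adjusted p = 0.325). UGT85A3 lay under the filter on all wild-type arrays and on cct-1 replicates 2 and 3, so the size of its rise is uncertain. The call of UGT78D2 against gct-2 was lost when any 1 cct-1 array was left out, and likewise for gct-2 replicates 2 and 3 (adjusted p up to 0.0764). That of UGT85A3 against wild type was lost when cct-1 replicate 2 or 3 was dropped, or the wild-type array numbered 2 (up to 0.0781). UGT85A3 exceeded the filter only on cct-1 replicate 1 and gct-2 replicates 2 and 3. Without any of these arrays, or with a higher filter percentile, it was not tested, so those settings cannot show whether its call held. The call of UGT71C5 against wild type was lost on dropping any cct-1 array, wild-type arrays 2 or 3, or the gct-2 array numbered 2. It was also lost with wild type and cct-1 fitted alone (adjusted p up to 0.131 over these settings).

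In the cold and abscisic acid list 3 genes were tested. The dehydrin gene COR47 fell in cct-1 against wild type by 0.41 (SE 0.10, limma adjusted p = 0.0313) and differed by -0.38 from gct-2 (adjusted p = 0.0626). COR15B, which protects chloroplast membranes in the cold, differed by -0.49 from wild type (adjusted p = 0.0872) and by -0.65 from gct-2 (adjusted p = 0.0537), and COR15A by -0.45 and -0.25 (adjusted p = 0.533 and 0.77). The call of COR47 was lost without wild-type replicate 1 or 2 or cct-1 replicate 1 or 3, and with only wild type and cct-1 fitted (adjusted p up to 0.113). COR47 was called against gct-2 with median centring and with an intensity trend (down to 0.0171). COR15B was called against gct-2 when cct-1 replicate 3 was left out, and with array weights, median centring or a 60th percentile filter (down to 0.034). The thionin gene THI2.2 was lower in cct-1 than in gct-2 by 1.66 (SE 0.20, limma adjusted p = 0.0037). It differed in cct-1 by -0.66 from wild type (adjusted p = 0.0599, called down to 0.0356 without gct-2 replicate 1, with median centring and with an intensity trend). In gct-2 it was itself higher than in wild type, by 1.00 (SE 0.20, adjusted p = 0.0107).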

How the data were processed

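The deposited table gave log2 expression values per probe set, 1 column per array, and was used as deposited. That the deposited values are log2 was judged from their range. GCRMA and MAS5 are named, without role or version, per the submitters' processing notes, so what each did, and how the 16863 probe sets were selected, remains unknown here.

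Genotype, replicate and age came from the labels. Members and gene lists were chosen with earlier results of these data known. Platform gene names were updated with RefSeq (TAIR10.1), which held 9291 of 9335 probe sets with 1 gene, and word-based lists used its symbols and synonyms. All named members are described. The brightest probe set stood for a listed gene.

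With limma 3.58.1 in R 4.3.3, 1 mean per genotype was fitted on 9 arrays to probe sets above the 40th percentile on at least 3 arrays, without 37 controls, with Benjamini-Hochberg adjustment. Lower bounds raised dim values on the lower side of a comparison to that percentile and kept the higher side as measured. Scripts were tested on simulated data. Alternatives changed the thresholds, filter, normalization, variance model and arrays. Promoter and protein sequences were not analysed here.

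Replicate numbers were not taken as pairs: deviations of same-numbered arrays correlated by -0.27 to 0.09 in 9 pairs.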

Additional observations from a re-analysis of the deposited data

How the results depend on the processing

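The number of members followed the thresholds. The higher and lower members numbered 57 and 57 with a minimum of 0.5 log2, 8 and 2 with a minimum of 1 log2, and 38 and 28 with no floor on the highest array. With a floor of 8 there were 15 higher members, and with a limit of 0.2 between wild type and gct-2 there were 11 lower ones. Quantile normalization retained 22 of 23 higher and 17 of 18 lower members, and median centring 22 and 18. With 1 array left out there were 20 to 30 higher and 9 to 27 lower members. Without wild-type replicate 1 there were 9 lower members, 7 of them among the 18. Of the 41, 10 met the conditions in all 9 such settings, AT1G33110 and AT1G32520 being those with a name.

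Quantile normalization and median centring changed the sign of no named member's difference. With an array left out the sign is fixed by how members were chosen and says nothing of stability. The share of chosen probe sets beyond both others by 0.7 or more on the left-out arrays was 34.4% to 52.2% for higher choices. For lower choices it was 20% to 33.3%.

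With limma, 1344 probe sets were called between cct-1 and wild type, 664 between the mutants and 1586 between gct-2 and wild type. With an array left out these ran from 590 to 1310, from 151 to 647 and from 805 to 1646, the lowest without wild-type replicate 2, gct-2 replicate 3 and wild-type replicate 2. Between the mutants 1023 were called with array weights, 358 with the replicate block and 389 with only cct-1 and gct-2 fitted, and in gct-2 2640 with no filter and 2682 with array weights. With the replicate block 979 were called between cct-1 and wild type. The replicate block also ended the calls of UGT78D2 against gct-2 and of UGT85A3 and COR47 against wild type. Differences that were not called changed sign in a few fits. With an array left out, UGT85A4 differed from gct-2 by -0.46 to 0.0503 log2, COR15A from wild type by -0.91 to 0.0631 and from gct-2 by -0.71 to 0.26, and UGT74B1 from gct-2 by -0.24 to 0.24. With array weights COR15A and UGT74B1 differed from gct-2 by 0.10 and 0.16. Among the 11 single genes recomputed, no called difference changed sign.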
